A study of Mus musculus with 8 samples.

Results

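Chemokines are small secreted proteins that attract cells along their gradients, and their genes and those of their receptors are described here in hearts of newborn mice. The members are the protein-coding rows of the expression table whose symbols begin with Ccl, Cxcl, Cx3cl, Xcl, Ccr, Cxcr, Cx3cr, Xcr or Ackr, with a number directly after Ccl, Cxcl, Ccr and Cxcr. They are 67 of the 54532 rows and of the 22046 protein-coding rows, and they carry 61 symbols, since 5 symbols have more than 1 row. By role, 44 rows are ligands, 19 are signalling receptors and 4 are atypical receptors. Whole hearts were taken at postnatal day 4 from littermates of 2 genotypes, with 4 libraries each. Control animals were Mrps5 fl/+, with 1 floxed allele and no Cre, and the cHET animals were Mrps5 fl/+;Myh6-Cre. Myh6 is a heart muscle gene, so Cre acts in cardiomyocytes, where it removes 1 allele of Mrps5, which encodes a mitochondrial ribosomal protein. No group carried Cre without the floxed allele, so an effect of Cre itself cannot be told apart from that of the allele. The comparison asks which transcripts differ when cardiomyocytes hold a single Mrps5 allele.

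Chemokines are named for the spacing of the cysteines near their start, as CC, CXC, CX3C and XC ligands. Most bind G protein-coupled receptors that steer leukocytes, while the atypical receptors bind chemokines without that signal and take them up, which shapes their gradients. In the developing heart Cxcl12 and its receptor Cxcr4 are known for their part in forming coronary vessels, Ackr3 is a second receptor of Cxcl12, and Ccl2 with Ccr2 and Cx3cl1 with Cx3cr1 are known as pairs that act on monocytes and macrophages.

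The transcripts of Cxcl12 and its receptors Cxcr4 and Ackr3 were among the most abundant of the family, and the 120 bases upstream of their RefSeq starts (GRCm38.p6) are shown, 5′ to 3′ on the gene's strand, because these genes carry much of the family's signal in the heart. They lie at chr6:117168415-117168534 (plus strand) for Cxcl12, chr1:128592300-128592419 (minus strand) for Cxcr4 and chr1:90203860-90203979 (plus strand) for Ackr3. Capitals mark the TATA box letters TATAAA and the GC box letters GGGCGG, each on either strand.
Cxcl12: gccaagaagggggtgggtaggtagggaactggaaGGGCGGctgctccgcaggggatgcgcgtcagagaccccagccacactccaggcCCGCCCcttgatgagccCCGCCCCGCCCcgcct
Cxcr4: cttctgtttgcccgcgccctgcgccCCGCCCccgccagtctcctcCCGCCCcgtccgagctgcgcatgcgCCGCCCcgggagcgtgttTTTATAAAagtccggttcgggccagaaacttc
Ackr3: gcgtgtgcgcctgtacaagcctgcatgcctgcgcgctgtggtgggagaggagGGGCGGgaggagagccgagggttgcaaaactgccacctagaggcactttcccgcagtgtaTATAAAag
The window of Cxcl12 held 4 GC boxes, of which the last pair overlap by 1 base, and no TATAAA. The Cxcr4 window held 3 GC boxes, and TATAAA on both strands in overlapping letters that begin 30 bases (same strand) and 32 bases (opposite strand) before the start. The Ackr3 window held 1 GC box and TATAAA from 8 to 3 bases before the start. Over 32851 promoter windows of the same length, 6.34% held TATAAA and 26.5% held GGGCGG on either strand. Neither the CCAAT box letters (21.3% of windows) nor the AP-1 letters TGACTCA (2.3% of windows), also searched on both strands, were found in these 3 windows. RefSeq promoter entries matched 46 of the 61 symbols.

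Each library held 15490622 to 19234777 reads in genes and 12890 to 13175 genes of at least 1 FPKM (fragments scaled by gene length and a library total, so that levels can be compared between genes). The total used for scaling was 0.968 to 1.04 times the library's own reads in genes. Mrps5 stood at 11.6, 6.27, 10.1 and 5.15 FPKM in the libraries labelled control 1 to 4 and at 6.84, 7.12, 6.995 and 7.68 in those labelled cHET 1 to 4 (8.27 ± 3.05 and 7.16 ± 0.365, SD, n = 4; exact two-sided permutation test, p = 0.486, where 0.0286 is the smallest p that 4 against 4 libraries allow). The target gene thus did not separate the groups: control 2 and control 4 lay below every cHET library, and control 1 and control 3 above. In whole heart its level also comes from cells without Cre, whose part was not tested. Directions below are those of the libraries as labelled. A marker of brown fat set 3 libraries apart: control 1, control 2 and cHET 2 read 17.8, 16.7 and 6.56 FPKM for Ucp1, and the other 5 libraries 1.62 or less. Values without these libraries are given beside the genes they move. The atrial genes Myl7 and Sln differed between libraries as well. Myl7 stood at 69.0 FPKM in cHET 3, at 643 in control 4 and at 2071 to 3775 in the others. Sln stood at 1.37 FPKM in cHET 3 and at 65.1 to 167 in the others. How far atrial content bears on the members was not tested, and values without cHET 3 are given below. Xist and Ddx3y gave 2 male control libraries (control 1 and control 3) and 2 female ones. Of the cHET libraries 1 was male (cHET 1) and 3 were female.

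The heart's chemokine transcripts came from few genes. Of the 67 rows, 13 had a mean over all libraries of at least 1 FPKM, 20 had a mean of 0.1 to 1, 22 were detected below that, and 12 were at 0 in every library. Ackr3, Cxcl12 and Ccl27a together made up 54.0% of the summed member FPKM. The sum over all members was 57.1 to 78.9 FPKM in control and 55.4 to 59.5 in cHET, with control 1 (73.8) and control 2 (78.9) above the other 6 libraries.

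No member passed the test between the genotypes. With limma on log2(FPKM + 1), 0 of the 13 genes tested had an adjusted p under 0.05, where 0.023% of the 13029 genes tested passed (3 genes, all higher in cHET). At an unadjusted p under 0.05 stood 6 of the 13 (46.2%), with 2 higher and 4 lower in cHET, against 8.95% of all genes tested (5.03% higher and 3.92% lower). The values of the 4 cHET libraries lay all above or all below the 4 control values for 3 of the 13 (23.1%), against 4.74% of all genes tested (2.74% higher and 2.0% lower). The log2 fold change was below 0 for 10 of the 13, against 47.9% of all genes tested, and its median was -0.29, against 0.0086 over all genes. Without control 1, control 2 and cHET 2 the count below 0 was 7 of 13, the median -0.0050 and the count at an unadjusted p under 0.05 was 3. The shares over all genes were not counted for that fit. Without control 2 alone the median was -0.084, and without cHET 3 alone it was -0.20. The log2 fold changes that moved without cHET 3 included Ackr3 (-0.29, from -0.37), Ccl12 (-0.17, from -0.33) and Ccl21a (-0.73, from -0.29). Ccl7 and Ackr4 entered through the control group, since their cHET means were under 1 FPKM, so these counts describe the genes tested and not the family. With voom on reads rebuilt from the table, 0 of 21 members passed (0.038% of 15784 genes tested) and 6 had an unadjusted p under 0.05 (9.22% of all genes).

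**Figure D1:**
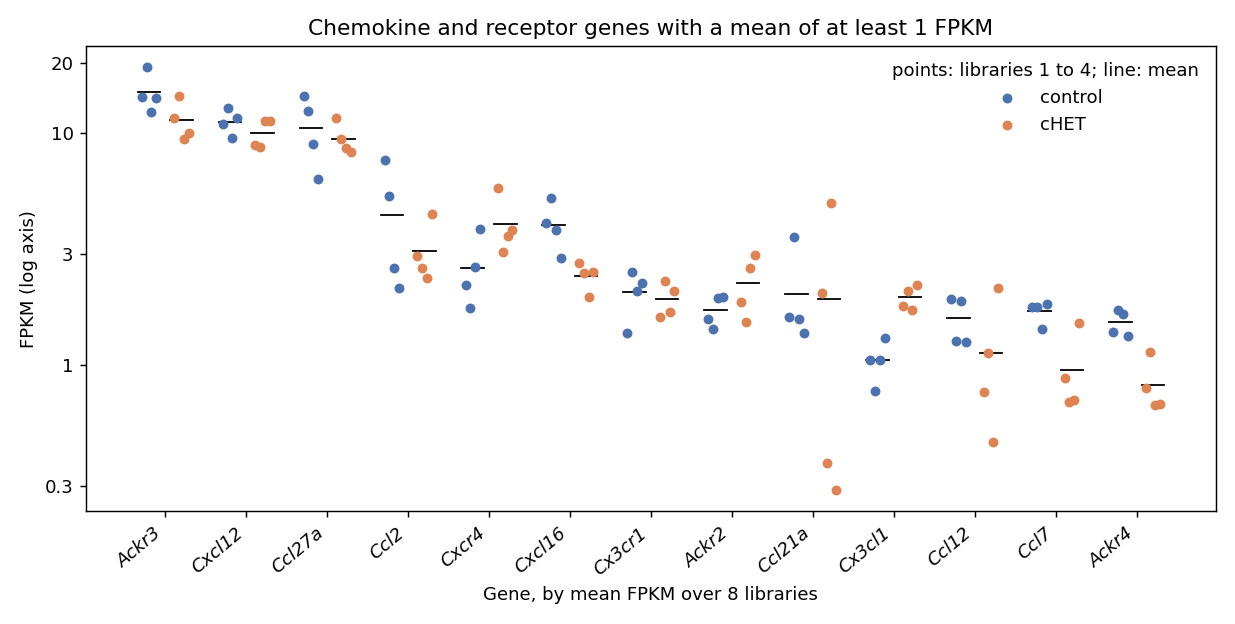
FPKM on a log axis for the 13 chemokine and receptor genes with a mean of at least 1, ordered by that mean. Each point is a library (4 control, 4 cHET) and each line a group mean. The 4 cHET points of Cx3cl1 lie above its 4 control points, those of Cxcl16 and Ackr4 lie below, and the groups of the other 10 genes overlap.

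Among the ligands, Cxcl12, which retains progenitor cells and guides vessel growth, was the most abundant by mean level. It stood at 10.9, 12.8, 9.46 and 11.6 FPKM in control 1 to 4 and at 8.86, 8.70, 11.3 and 11.3 FPKM in cHET 1 to 4. Its groups overlap, with cHET 1 and cHET 2 below every control library and cHET 3 and cHET 4 inside the control range. The log2 fold change was -0.14 (95% interval -0.41 to 0.12; limma, adjusted p = 0.716), and it was -0.064 without control 1 and control 2 and -0.0050 without cHET 2 as well.

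Ccl27a, a ligand of Ccr10 known from skin, had levels near those of Cxcl12. Its row on chromosome 4 (41769467 to 41774247, minus strand) stood at 14.4, 12.4, 8.96 and 6.29 FPKM in control 1 to 4 and at 11.6, 9.37, 8.57 and 8.26 FPKM in cHET 1 to 4. The cHET values all lie inside the wide control range, and the log2 fold change was -0.093 (limma, adjusted p = 0.898). It was above 0 without control 1 (0.066), without control 1 and control 2 (0.28) and under TPM scaling (0.0015). Of its 2377 exon bases, 8 are shared with Il11ra1 on the opposite strand, and its symbol has 3 rows, so how reads of near-identical copies were assigned bears on its level. Of the other rows, 1 was at 0 and 1 held 2 reads in control and 0 in cHET.

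Cx3cl1 was the member with the smallest p of the 13. It encodes fractalkine, which is made as a membrane-bound adhesion molecule and released by cleavage. The gene (ENSMUSG00000031778, chromosome 8, 94772009 to 94782427, plus strand) stood at 1.05, 0.772, 1.05 and 1.31 FPKM in control 1 to 4 and at 1.79, 2.08, 1.73 and 2.20 FPKM in cHET 1 to 4. All 4 cHET values exceeded the highest control value, and the group means were 1.04 ± 0.218 and 1.95 ± 0.227 FPKM (SD, n = 4), a ratio of 1.87. The log2 fold change was 0.53 (SE 0.111, 95% interval 0.28 to 0.78; limma, adjusted p = 0.309), which did not pass. With voom on the rebuilt reads, 49 to 163 per library, the log2 fold change was 0.95 (adjusted p = 0.207). Without control 1, control 2 and cHET 2 it was 0.41 on the main scale, and no other gene of the table overlaps Cx3cl1.

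Cxcl16, the other chemokine with a membrane-bound form and the ligand of Cxcr6, had lower levels in cHET. The gene (ENSMUSG00000018920, chromosome 11, 70453983 to 70459984, minus strand) stood at 4.09, 5.25, 3.80 and 2.87 FPKM in control 1 to 4 and at 2.73, 2.47, 1.96 and 2.52 FPKM in cHET 1 to 4. The groups did not overlap, though control 4 and cHET 1 came close, and the means were 4.00 ± 0.980 and 2.42 ± 0.328 FPKM (SD, n = 4). The log2 fold change was -0.53 (limma, SE 0.145, 95% interval -0.86 to -0.21, adjusted p = 0.357). It was -0.34 without control 1 and control 2 and -0.35 without cHET 2 as well. Zmynd15, on the opposite strand, shares 552 exon bases (18.3%) with Cxcl16 and had means of 2.21 and 1.63 FPKM (log2 fold change -0.29; limma, adjusted p = 0.547). The strand setting of the counting is not given in the sources used here, so the reads of the shared bases cannot be told apart.

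The ligands of Ccr2, the receptor that brings monocytes out of the marrow, lie in one stretch of chromosome 11, with Ccl11 between the second and the third: Ccl2 (82035571 to 82037453), Ccl7 (82045712 to 82047525) and Ccl12 (82101845 to 82103400), all on the plus strand. Ccl7 stood at 1.77, 1.78, 1.42 and 1.83 FPKM in control 1 to 4 and at 0.876, 0.689, 0.700 and 1.51 FPKM in cHET 1 to 4. Of the cHET libraries 3 lay below every control library, and cHET 4 lay above control 3. The means were 1.70 ± 0.186 and 0.944 ± 0.387 FPKM (SD, n = 4), from 9 to 24 reads per library. The log2 fold change was -0.49 (SE 0.143, 95% interval -0.81 to -0.17; limma, adjusted p = 0.391).

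Ccl2, the most abundant of these 3, stood at 7.64, 5.33, 2.62 and 2.15 FPKM in control 1 to 4 and at 2.93, 2.60, 2.35 and 4.45 FPKM in cHET 1 to 4. The groups overlap, and the 2 highest values belong to control 1 and control 2. Its log2 fold change of -0.32 (95% interval -1.02 to 0.39; limma, adjusted p = 0.748) was 0.25 without these 2 libraries. Ccl12 stood at 1.92, 1.27, 1.89 and 1.25 FPKM in control 1 to 4 and at 0.763, 1.12, 0.464 and 2.14 FPKM in cHET 1 to 4, from 4 to 20 reads per library. Its groups overlap through cHET 4, which held the highest value (log2 fold change -0.33; limma, adjusted p = 0.668). In all 3 genes cHET 4 was the highest of the cHET libraries. The sum of the 3 was 11.3, 8.38, 5.93 and 5.23 FPKM in control 1 to 4 and 4.57, 4.41, 3.52 and 8.11 FPKM in cHET 1 to 4. Ccl11 (the eosinophil attractant eotaxin) was at 0.202 and 0.0537 FPKM, with 0.572 in control 2, and Ccl8 and Ccl1, also of this neighbourhood, were at 0 in every library.

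Ccl21a, a ligand of Ccr7 made by lymphatic vessels and lymph nodes, was read from 1 row on the unplaced scaffold JH584294.1. It stood at 1.60, 3.54, 1.58 and 1.37 FPKM in control 1 to 4 and at 2.04, 0.374, 4.96 and 0.286 FPKM in cHET 1 to 4, from 2 to 32 reads per library. The cHET libraries held both the highest value and the 2 lowest (log2 fold change -0.29, 95% interval -1.35 to 0.76; limma, adjusted p = 0.838). Without control 1 and control 2 this was -0.054, and it was 0.21 without cHET 2 as well. The Ccl21 genes are near-identical copies, so its level is uncertain, and of the other rows of Ccl21a, Ccl21b and Ccl21c none exceeded 2 reads in a group.

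**Figure D2:**
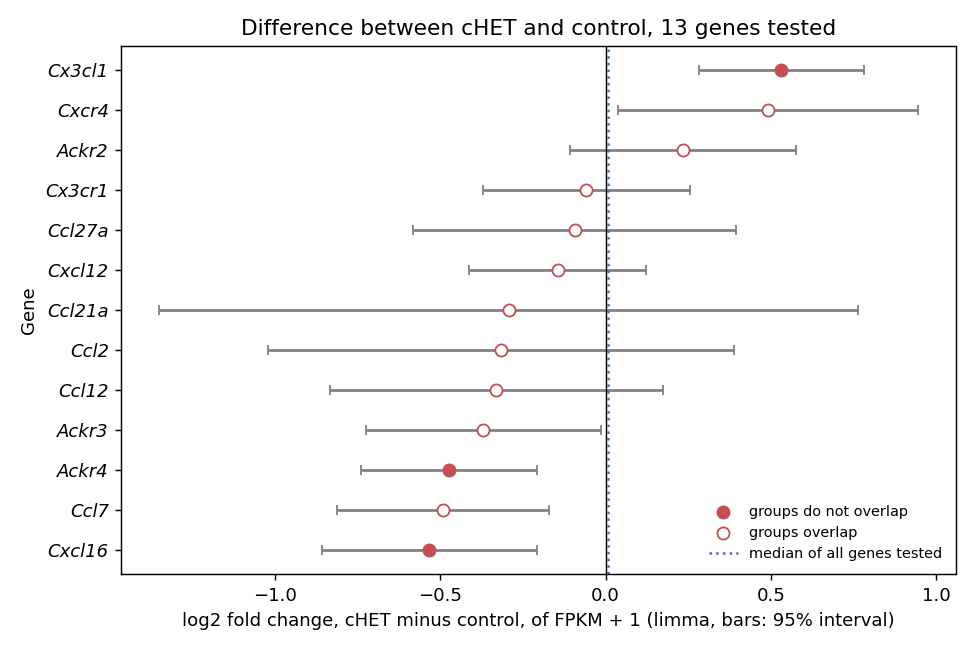
Log2 fold change of FPKM + 1, cHET minus control, with its 95% interval from limma, for the 13 genes tested (4 libraries a group). Filled points mark genes whose groups do not overlap (Cx3cl1, Cxcl16, Ackr4), open points the others, and the dotted line the median of all genes tested (0.0086). The intervals of 6 genes leave out 0 before adjustment, Cx3cl1 and Cxcr4 on the higher side and 4 on the lower.

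Of the signalling receptors, 2 of 19 reached a mean of 1 FPKM. Cxcr4, the G protein-coupled receptor of Cxcl12 (ENSMUSG00000045382, chromosome 1, 128588199 to 128592293, minus strand), stood at 2.21, 1.75, 2.63 and 3.85 FPKM in control 1 to 4 and at 5.79, 3.05, 3.58 and 3.79 FPKM in cHET 1 to 4. Control 4 was above all cHET libraries but cHET 1, and the other 3 control libraries were below all 4. The means were 2.61 ± 0.903 and 4.05 ± 1.199 FPKM (SD, n = 4), and the log2 fold change was 0.49 (SE 0.201, 95% interval 0.038 to 0.94; limma, adjusted p = 0.537). It was 0.24 without control 1 and control 2 and 0.34 without cHET 2 as well.

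Cx3cr1, the receptor of Cx3cl1 on resident macrophages, stood at 1.37, 2.50, 2.08 and 2.25 FPKM in control 1 to 4 and at 1.60, 2.31, 1.69 and 2.07 FPKM in cHET 1 to 4. The cHET values lie inside the control range, and the log2 fold change of -0.058 (95% interval -0.37 to 0.26; limma, adjusted p = 0.899) was 0.0096 under TPM scaling, 0.013 without control 2 and -0.19 without control 1, control 2 and cHET 2. The log2 fold changes of the ligand and its receptor were thus 0.53 and -0.058, and the difference between these was not tested. The 19 signalling receptors summed to 6.30 to 7.93 FPKM in control and 7.31 to 8.60 in cHET, ranges that overlap.

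The atypical receptors included the most abundant member of all. Ackr3, which binds Cxcl12 and removes it from the tissue (ENSMUSG00000044337, chromosome 1, 90203980 to 90216751, plus strand), stood at 14.2, 19.2, 12.3 and 14.2 FPKM in control 1 to 4 and at 11.5, 14.5, 9.39 and 10.03 FPKM in cHET 1 to 4. Of the cHET libraries 3 lay below every control library, and cHET 2 lay above 3 of the 4. The means were 15.0 ± 2.98 and 11.4 ± 2.26 FPKM (SD, n = 4), and the log2 fold change was -0.37 (SE 0.158, 95% interval -0.73 to -0.014; limma, adjusted p = 0.547). Without control 1 and control 2 it was -0.22, and without cHET 2 as well it was -0.33.

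Ackr4, which takes up the ligands of Ccr7 and Ccr9 (ENSMUSG00000079355, chromosome 9, 104084157 to 104126933, minus strand), stood at 1.39, 1.71, 1.65 and 1.33 FPKM in control 1 to 4 and at 0.794, 1.14, 0.671 and 0.674 FPKM in cHET 1 to 4. All 4 cHET values lay below the lowest control value, with means of 1.52 ± 0.190 and 0.819 ± 0.220 FPKM (SD, n = 4). The log2 fold change was -0.47 (SE 0.118, 95% interval -0.74 to -0.21; limma, adjusted p = 0.337), and it was -0.54 without control 1, control 2 and cHET 2. Acad11, on the opposite strand, shares 479 exon bases (8.9%) with Ackr4 and had means of 2.91 and 2.36 FPKM (log2 fold change -0.21; limma, adjusted p = 0.624). Of the ligands of these receptors, Ccl25 had 0.864 ± 0.0280 and 0.939 ± 0.120 FPKM in control and cHET, Ccl19 was at 0 in both of its rows, and Ccl21a is given above.

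Ackr2, a scavenger of inflammatory CC chemokines such as Ccl2, stood at 1.56, 1.43, 1.95 and 1.95 FPKM in control 1 to 4 and at 1.87, 1.52, 2.61 and 2.96 FPKM in cHET 1 to 4. Its groups overlap, with cHET 3 and cHET 4 above every control library (limma log2 fold change 0.23, 95% interval -0.11 to 0.58, adjusted p = 0.659). The log2 fold change was 0.11 without control 1 and control 2 and 0.23 without cHET 2 as well. Ackr1, the Duffy receptor of red cells and venules, was at 0.133 and 0.0826 FPKM in control and cHET. Summed, the 4 atypical receptors stood at 17.2, 22.5, 16.1 and 17.6 FPKM in control 1 to 4 and at 14.3, 17.2, 12.8 and 13.8 FPKM in cHET 1 to 4, where cHET 2 reached the control range.

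Leukocyte chemokines of inflammation were present at low levels. The CC ligands of a second cluster on chromosome 11 (from Ccl5 at 83525778 to Ccl4 at 83664683) had control and cHET means of 0.942 and 0.673 FPKM (Ccl6), 0.695 and 0.430 (Ccl9), 0.429 and 0.462 (Ccl4), 0.330 and 0.235 (Ccl3) and 0.114 and 0.318 (Ccl5). For Ccl5, 1 library, cHET 2, was at 0.784 FPKM and the other 7 were at 0.244 or less. The receptors Ccr1 (0.658 and 0.408 FPKM) and Ccr2 (0.216 and 0.126, from 93 and 60 reads per group) had overlapping groups. Ligands of the neutrophil receptor Cxcr2 (0.139 and 0.117 FPKM) were Cxcl1 (0.572 and 0.448) and Cxcl2 (0.143 and 0.149), and their sum with Cxcl3 and Cxcl5 was 0.396 to 1.21 FPKM in control and 0.326 to 0.919 in cHET.

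Other genes with means of 0.1 to 1 FPKM were, in control and cHET, Ccr10 (0.700 and 0.591), the eosinophil attractant Ccl24 (0.337 and 0.0516), Ccl17 (0.0902 and 0.189), the B cell attractant Cxcl13 (0.0807 and 0.198, with 0.742 in cHET 2), Cxcr6, the receptor of Cxcl16 (0.0893 and 0.143), and the interferon-induced Cxcl10 (0.0974 and 0.117). Ccl24 rested on 28 reads in control and 5 in cHET, and control 3 (0.0979 FPKM) lay below cHET 2 (0.116). With the filter lowered to a mean of 0.1 FPKM and a pseudocount of 0.1, 33 members were tested and 0 passed in limma (0.0398% of 20107 genes tested). At an unadjusted p under 0.05 stood 7 of the 33 (21.2%), against 8.11% of all genes: the 6 above and Ccl24 (log2 fold change -1.43; limma, adjusted p = 0.523). Ccl24 passed the lower filter through the control group alone, where it was high, so this count too describes only the genes tested.

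**Figure D3:**
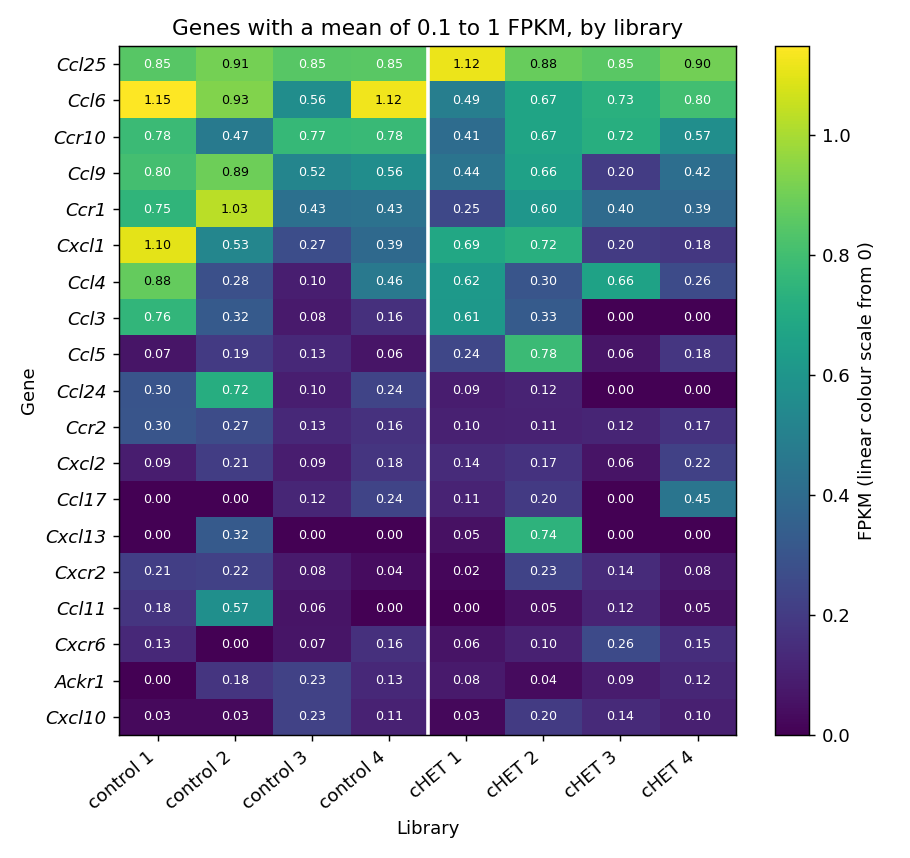
FPKM of 19 genes with a mean of 0.1 to 1, by library, on a linear colour scale from 0, with control libraries left of the white line and cHET libraries right of it. Single bright cells within a row, such as Ccl5 and Cxcl13 in cHET 2 and Ccl11 in control 2, are values carried by 1 library.

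The 22 rows detected below a mean of 0.1 FPKM were those of Ccr7, Ccl28, Ccl27b, Cxcl14, Cxcl9, Cxcr5, Cxcr3, Cxcl17, Cxcl5, Xcr1, Ccl22, Ccr9, Ccr3, Xcl1, Cxcl15, Ccl20, Ccr4, Ccl21c, Cxcl3 and Ccr6 and of second rows of Ccl27a and Ccl21a. Their highest values in any library above 0.1 FPKM were 0.303 (Ccl27b, control 1), 0.291 (Ccr7, cHET 4), 0.183 (Ccl28, control 3), 0.167 (Cxcl17, control 3), 0.155 (Cxcr5, control 1), 0.155 (Cxcl9, cHET 1), 0.148 (Ccl21a, control 1), 0.141 (Cxcl14, control 1), 0.129 (Ccl22, cHET 2) and 0.112 (Cxcr3, control 1). The 12 rows at 0 in every library were Ccl8, Ccl1, Ccr8, Cxcr1, Ccr1l1, Ccl26, both rows of Ccl19, both of Ccl21b and 1 each of Ccl27a and Ccl21c. Many of these receptors belong to lymphocytes and dendritic cells, and a level of 0 means only that no read was assigned at this depth.

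Markers of the cells that make or receive these chemokines also differed between libraries. In whole tissue, fewer cells of a type and less RNA per cell cannot be told apart. The 19 macrophage markers, led by Lyz2 and C1qa, summed to 154, 218, 118 and 110.3 FPKM in control 1 to 4 and to 95.8, 129, 86.8 and 90.0 FPKM in cHET 1 to 4. All 14 of the macrophage markers that were tested had a log2 fold change below 0 (median -0.41), 6 of them at an unadjusted p under 0.05, and 0 passed in limma after adjustment. Over all genes tested, 47.9% were below 0 and 8.95% had an unadjusted p under 0.05 (3.92% lower). The part of these markers in the levels of Cxcl16, Ccl2, Ccl7 and Ackr4 was not tested. The 12 neutrophil markers, led by S100a9 and S100a8, summed to 28.1, 77.6, 13.7 and 9.86 FPKM in control and to 10.6, 14.3, 13.1 and 18.0 in cHET. The 6 fat markers, led by Cidea and Ucp1, summed to 60.7, 56.5, 25.2 and 29.4 FPKM in control and to 29.8, 43.1, 30.5 and 34.0 in cHET. Macrophage, neutrophil and fat markers were thus all highest in control 1 and control 2, where Ccl2 was also highest. In cHET 4, Ccl2 was next highest at 4.45 FPKM, while the macrophage markers there summed to 90.0. The part of any of these markers in the level of Ccl2 was not tested.

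**Figure D4:**
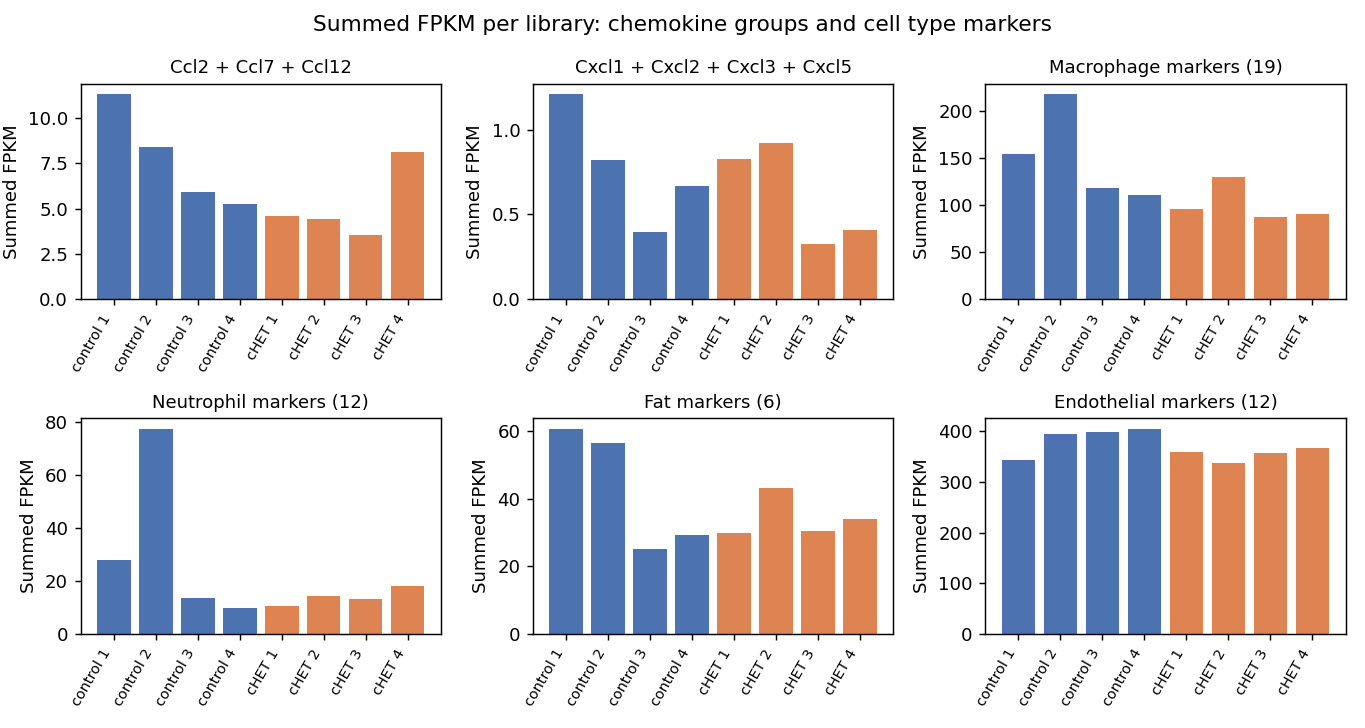
Summed FPKM per library (bars from 0, control 1 to 4 and cHET 1 to 4) for the Ccr2 ligands, the Cxcr2 ligands and the markers of macrophages (19 genes), neutrophils (12), fat (6) and endothelium (12). Control 1 and control 2 stand highest in the Ccr2 ligands and in macrophage, neutrophil and fat markers. In the Ccr2 ligands cHET 4 (8.11 FPKM) comes close to control 2 (8.38). Endothelial markers run from 338 to 405 FPKM over all libraries.

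The 12 endothelial markers, led by Eng and Cdh5, summed to 343 to 405 FPKM in control and 338 to 367 in cHET, with 7 of 12 below 0 (47.9% of all genes tested) and 4 of them at an unadjusted p under 0.05 (3.92% lower among all genes). The 8 epicardial markers, led by Aldh1a2 and Msln, summed to 64.2 to 111 FPKM in control and 44.2 to 64.7 in cHET, with 6 of 8 below 0, a median of -0.54, 4 at an unadjusted p under 0.05, all lower, and no overlap for Msln. The part of either in the levels of Cxcl12, Cxcr4, Ackr3 and Cx3cl1 was not tested. Lymphatic markers (Prox1 and Pdpn led) summed to 16.6 to 20.6 and 17.9 to 19.5 FPKM in control and cHET, fibroblast markers (Col3a1, Col1a1) to 627 to 908 and 548 to 923 with 9 of 9 below 0 and none at an unadjusted p under 0.05, smooth muscle and pericyte markers (Acta2, Rgs5) to 452 to 889 and 530.5 to 862, and cardiomyocyte markers (Actc1, Myl2) to 19947 to 23347 and 18831 to 22257. Lymphocyte markers were scarce in both groups: the sums reached at most 1.82 FPKM for T cells (Trbc2, Lck), 3.25 for B cells (Cd79b, Cd79a) and 0.948 for NK cells (Klrd1, Gzma). Thymus markers (Ptcra, Prss16) reached 0.180, and 2 of the 8 were at 0 in every library. Monocyte markers (Plac8, F13a1) summed to at most 4.32 FPKM, dendritic cell markers (Zbtb46, Clec9a) to 3.97, platelet markers (Itga2b, Gp9) to 4.26 and mast cell markers (Cma1, Tpsb2) to 39.2. Red cell markers (Hbb-bs, Hba-a1) ran from 993 to 8044 FPKM, highest in control 2.

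Genes around the family were read from 3 lists, and none of their members passed in limma. Of 13 chemokine-related genes whose symbols fall outside the family's names, 12 were tested, and 1 had an unadjusted p under 0.05, a share near the 8.95% of all genes tested. It was Dpp4, the peptidase that clips Cxcl12 and other chemokines, with means of 3.15 ± 0.618 (control) and 1.80 ± 0.238 FPKM (cHET) and no overlap of the groups (log2 fold change -0.56; limma, adjusted p = 0.319). Next by p were the chemerin gene Rarres2 (log2 fold change -0.60, adjusted p = 0.568 by limma) and the platelet chemokine Pf4 (-0.45, adjusted p = 0.643). The most abundant were Mif, a cytokine that also binds Cxcr4 (297 ± 89.4 and 330.0 ± 66.4 FPKM), and Cmtm3 (20.5 ± 2.80 and 19.3 ± 2.45). The median of the list was -0.069.

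For signalling below the receptors 20 of 29 genes were tested, 9 of them with a log2 fold change below 0 (median 0.042) and 1 at an unadjusted p under 0.05 (8.95% of all genes). Ptk2b, a kinase downstream of chemokine receptors, was at 2.17 ± 0.264 and 2.84 ± 0.334 FPKM with all 4 cHET values above the highest control value (log2 fold change 0.28; limma, adjusted p = 0.484). The receptor kinase Grk6 also showed no overlap (0.15, adjusted p = 0.572 by limma), while the arrestin Arrb2 was at -0.20 (adjusted p = 0.643). The most abundant were the G protein gene Gnai2 (log2 fold change 0.21) and the GTPase gene Cdc42 (-0.033). Of 28 cytokine, NF-kB and adhesion genes 16 were tested, with a median of 0.021 and 1 at an unadjusted p under 0.05, which is no larger a share than the 8.95% of all genes. This was the NF-kB subunit gene Rel (1.85 ± 0.142 and 2.26 ± 0.116 FPKM, no overlap; log2 fold change 0.20, adjusted p = 0.538 by limma), while Relb (-0.20), Icam1 (-0.20), Nfkbia (0.16) and Rela (-0.043) had overlapping groups.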

How the data were processed

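Poly-A RNA of whole hearts was sequenced in 8 libraries, 4 a group, grouped by the genotype in the labels, whose series calls them biological replicates. The authors deposited 1 table of FPKM values for 54532 genes in these libraries. The submitters' processing notes name HISAT2 2.0.5, featureCounts 1.5.0-p3, DESeq2 1.20.0 and the build mm9, yet 98.3% of identifiers also in GENCODE M21 sit at identical GRCm38 positions there, among them 60 of 60 member rows, so coordinates are given on GRCm38. FPKM times gene length gave whole reads for 100% of values (within 0.05 reads).

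Genes with a mean FPKM of at least 1 (13029) were tested as log2(FPKM + 1), cHET minus control, two-sided, with limma 3.58.1 in R 4.3.3 (eBayes with trend and robust, Benjamini-Hochberg over all genes tested, threshold 0.05). On this scale a fold change understates the change of low genes. Mrps5 was compared by an exact permutation test. The limma step was tested on simulated data. Libraries of a group differed far beyond sampling noise (chi-square per gene 14.2 or more), so each counted as 1 replicate, and none was left out of the main comparison. Depth was 15490622 to 19234777 reads per library, and the fewest reads behind a tested member's value were 2 (Ccl21a).

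The family, the gene lists and the tests were chosen with earlier results of these data known. Genes of at least 1 FPKM are given by library, those of 0.1 to 1 by group, the rest by symbol, and of each pathway list the 3 with the smallest p and the 2 most abundant, of each marker list the 2 most abundant. Alternatives were other pseudocounts, filters, scalings and variance models, voom, a replicate block, sex as a covariate and libraries left out. Promoters are from RefSeq, and protein sequences were not used here. The values of 1 member with a mean of 0.1 to 1 FPKM are not reported here, though it stays in the counts.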

Additional observations from a re-analysis of the deposited data

Results flagged for a closer look

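Of 26 combinations of a tested gene and a group, 2 held a library far from the other 3, measured by the gap to the nearest value over the group's range. Chance marks about 1 group in 20. For Ccl7 in control, control 3 stood at 1.42 FPKM and the other 3 at 1.77 to 1.83 (ratio 0.849). For Ccl21a in control, control 2 stood at 3.54 FPKM and the others at 1.37 to 1.60 (ratio 0.892).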

How the results depend on the processing

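No member passed in any of the 24 other settings, and 9 of the 13 tested had the same direction in all of them. Of 312 pairs of a member and a setting, 12 reversed. Ccl2 reversed with library weights (0.036), without control 1 and control 2 (0.25) and without control 1, control 2 and cHET 2 (0.30). Ccl27a reversed under TPM (0.0015), library weights (0.032), without control 1 and control 2 (0.28) and without these and cHET 2 (0.28), and ran from -0.29 to 0.066 as single libraries were left out. Ccl21a reversed without the 3 libraries (0.21) and ran from -0.73 to 0.0026 over single libraries. Cx3cr1 reversed under TPM (0.0096) and ran from -0.17 to 0.013. TPM moved the median of all genes from 0.0086 to 0.10.

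Genes called, 3 (all higher), became 8 with the lower filter and pseudocount, 11 with library weights (8 higher, 3 lower), 6 with voom and 1 without the 3 libraries. The median over the members tested, -0.29, was -0.095 at a filter of 0.1 FPKM, -0.048 with library weights, -0.033 without a filter, -0.064 without control 1 and control 2 and -0.0050 without the 3 libraries, and ran from -0.39 (without control 4) to -0.084 (without control 2) over single libraries. The count below 0, 10 of 13, was 22 of 33 at the lower filter with either pseudocount. It was 33 of 55 without a filter and 17 of 21 with voom, where more members entered. Over the same 13 it was 8 under TPM, with library weights and without control 1 and control 2, and 7 without the 3 libraries. Unadjusted p under 0.05 (limma) held for 6 members, for 5 under TPM and for 4 with library weights. It held for 4 without control 1 and control 2 and for 3 without the 3 libraries. Over single libraries left out the count ran from 4 (such as without cHET 1) to 7 (without cHET 2). Shares over all genes were not counted for these fits. Groups without overlap, 3 of 13, became 5 of 13 without the 3 libraries, where fewer libraries make overlap less likely. Over single libraries left out this count ran from 3 to 5 (without cHET 4). The shares of all genes below 0 and without overlap are not given for these other settings. The counts there are thus values alone and no result about the members. Other causes were not tested.

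The labels number libraries 1 to 4 in both groups. Deviations of libraries with the same number correlated at 0.286, 0.266, 0.0521 and 0.0572, and those of different numbers at -0.272 to 0.344. Control 1, control 2 and control 3 were each closest to the cHET library of their own number, and control 4 to cHET 3 (0.344). The labels do not call them pairs, and the main comparison did not take them as pairs. With a replicate block 1 gene was called and 0 members. The block lowered the SE of Ackr3 from 0.158 to 0.0724 (limma, adjusted p = 0.162) and raised that of Ccl12 from 0.2235 to 0.2438 (adjusted p = 0.592). Ccl7, Ccl12 and Ccl21a rested on few reads per library. With voom their SE was 0.328, 0.445 and 0.718, against 0.189 for Cxcl16. On the main scale the SE of Ccl7 (0.143) was near that of Cxcl16 (0.145). How the number of reads bears on what could be detected was not tested.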
